A study of Mus musculus with 8 samples.

Results

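The genes described here govern how glucose and fructose enter glycolysis in the hepatocyte and how the pathway is driven at its regulated steps. They are Slc2a2, Gckr, Pfkl, Pfkfb1, Pfkfb3, Khk and Pklr, chosen by symbol, and each matched 1 row of the 35275 genes in the deposited count table. Their expression was measured in liver RNA of 4 Pcx L-/- mice and of 4 littermates with the genotype Pcx f/f, which serve as controls and are called WT in the sample labels. All were male C57BL/6 mice, aged 9 weeks and fasted for 24 h, and all came from crosses with floxed Pcx alleles, which Albumin-Cre, active in hepatocytes, deleted in the Pcx L-/- mice. The study describes the deletion as specific to hepatocytes, and counts from bulk liver do not show which other cells keep Pcx. Each library came from 1 mouse, and the question was which of these genes differ between fasted livers with and without pyruvate carboxylase.

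In the liver, glucose crosses the plasma membrane in both directions through the low-affinity transporter Glut2, the product of Slc2a2, and is then phosphorylated. The protein encoded by Gckr restrains that step while glucose is low. Phosphofructokinase commits fructose 6-phosphate to glycolysis and is stimulated by fructose 2,6-bisphosphate, which the bifunctional enzymes of the Pfkfb family make and break down. Fructose enters below this step, since ketohexokinase (Khk) phosphorylates it, and the product is split and passed on through triokinase. Pyruvate kinase, encoded by Pklr in liver and red blood cells, closes the pathway by making pyruvate, the substrate of pyruvate carboxylase. During a fast the liver releases glucose rather than consuming it.

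Totals per library ranged from 12016242 to 20023108 reads on genes. Pcx, the deleted gene, had between 556 and 758 normalized read counts in Pcx L-/- liver and between 14371 and 22059 in control liver, so no library went against its label. Normalized counts are reads divided by the library size times the TMM factor, edgeR's scaling between libraries. FPKM values, which were used to compare genes because they are per length, are not scaled by that factor, and the 2 measures therefore differ between genotypes. TMM factors were 1.14 to 1.16 in Pcx L-/- replicates 2 to 4, 0.970 in Pcx L-/- replicate 1 and 0.833 to 0.942 in controls. Pcx L-/- replicate 1 stood apart in a further respect. Its summed FPKM of 8 red blood cell markers, hemoglobins among them, was 5346, against 559 to 1415 in the other Pcx L-/- mice and 318 to 1232 in controls. It was also the only Pcx L-/- mouse numbered in the 500s, together with control replicates 1 and 2, while the other 5 mice were numbered in the 800s. Hepatocyte markers were abundant in every library, with a summed FPKM of 40630 to 49190 in Pcx L-/- and 51100 to 55630 in control liver. In bulk tissue, fewer cells of a type and less RNA per cell cannot be told apart.

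Promoter sequence is shown for Pklr, the gene of the 7 that rose, and for the 2 other genes whose windows hold an E-box, because the glucose-responsive factor ChREBP, the product of Mlxipl, binds pairs of E-box-like motifs. Windows of 250 bases before to 50 bases after each annotated start were taken from RefSeq for the assembly GRCm38.p6, which held 12 windows for the 7 genes. Both strands were searched for the E-box CACGTG, for the paired element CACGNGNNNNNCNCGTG, for the forkhead core TGTTTAC and for TGACG, the core of the cyclic AMP response element. The paired element occurred in 15 of 32851 windows (0.0457%), and Pklr was the 1 gene of the 7 that had it. Capitals mark the paired element in Pklr, upstream of the inner of its 2 starts, which gives the liver form of the enzyme and lies in an intron of the longer transcript that starts further upstream.
Pklr, chr3:89136373-89136571, plus strand: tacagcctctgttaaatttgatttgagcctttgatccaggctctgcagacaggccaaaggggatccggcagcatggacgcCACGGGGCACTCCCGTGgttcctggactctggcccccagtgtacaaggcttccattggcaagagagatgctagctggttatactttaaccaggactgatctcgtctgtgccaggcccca
The element began 170 bases before that start. In Pfkfb3, upstream of the inner of its 2 starts, and in Khk capitals mark an E-box, a motif found in 7.15% of all windows, and in Khk also the cyclic AMP core that overlaps it, read on the opposite strand.
Pfkfb3, chr2:11502102-11502340, minus strand: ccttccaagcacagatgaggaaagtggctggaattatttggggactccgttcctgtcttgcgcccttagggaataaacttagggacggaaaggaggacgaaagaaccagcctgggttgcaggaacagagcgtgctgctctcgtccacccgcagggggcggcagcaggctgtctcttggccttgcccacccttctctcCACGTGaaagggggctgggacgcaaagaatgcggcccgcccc
Khk, chr5:30921475-30921503, plus strand: cagcgttcccCGTCACGTGacaccgttaa
The core TGACG was found in 20.8% of all windows and, beside Khk, in 3 places of the 2 Pfkfb3 windows. The forkhead core was present in 3.65% of all windows and in none of the 12 windows of these genes. Such matches describe letters in a window and say nothing of whether a factor binds there.

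Of the 7 genes, all of which passed the filter on low counts, 4 were called at an adjusted p under 0.05 by edgeR's quasi-likelihood test, against 27.6% of the 13168 genes tested. Pklr rose, whereas Slc2a2, Pfkl and Pfkfb3 fell, against 14.1% of all genes called higher and 13.5% called lower. Gckr, Khk and Pfkfb1 did not pass the test. Over all genes tested, normalized counts of the genotypes did not overlap in 27.6%, with Pcx L-/- below in 12.5% and above in 15.1%. The median log2 fold change of the 7 genes was -0.48, and that of all genes tested was -0.01. In control liver the order of mean FPKM was Khk, Slc2a2, Gckr, Pklr, Pfkfb1, Pfkfb3 and Pfkl. There the ranges of Khk and Slc2a2 overlapped, as did those of Pfkfb1 and Pfkfb3 and those of Pfkfb3 and Pfkl, and the other neighbors were apart. In Pcx L-/- liver Pfkl stood above Pfkfb3, and the ranges of Slc2a2 and Gckr and of Gckr and Pklr overlapped, as did those of Pklr and Pfkfb1.

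**Figure D1:**
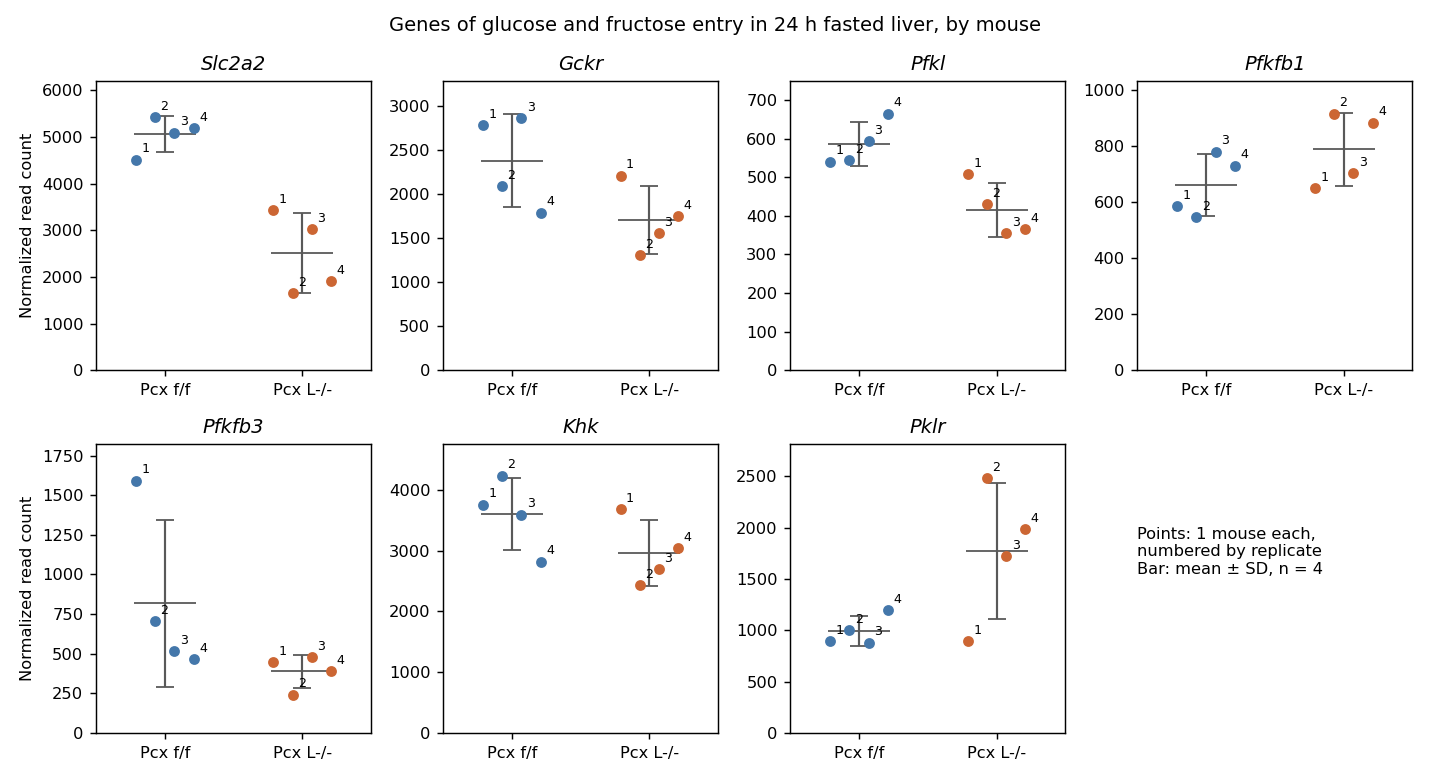
Normalized read counts (y axis, from 0) of the 7 genes in each Pcx f/f (blue) and Pcx L-/- (orange) mouse, 1 point per mouse with its replicate number, with the mean and SD (n = 4). Every Pcx L-/- mouse lies below every control for Slc2a2 and Pfkl, as was so for 12.5% of all genes tested. For Pklr replicate 1 of the Pcx L-/- mice lies among the controls at 896 while the other 3 lie above them.

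Slc2a2 (ENSMUSG00000027690, chromosome 3 from 28697903 to 28731359 of GRCm38, plus strand) encodes the glucose transporter Glut2. Its normalized counts were 3439, 1660.2, 3027 and 1909 in Pcx L-/- replicates 1 to 4. Control replicates 1 to 4 had 4516, 5432, 5096 and 5197. All 4 Pcx L-/- mice lay below all 4 controls, with replicates 2 and 4 the lowest. The level fell to 49.6% of control on this scale, a log2 fold change of -1.01 (SE 0.21, adjusted p = 0.00653). On the FPKM scale the level was 62.7 ± 18.3 in Pcx L-/- and 105 ± 9.39 in control liver (SD, n = 4 each). The coefficient of variation of the normalized counts was 34.2% in Pcx L-/- and 7.69% in control mice. Slc2a2 was called in all 20 alternative settings, with log2 fold changes from -1.23 to -0.75. Among the 7 genes it was the only one called in every setting tried. An antisense gene that overlaps Slc2a2, 1700112D23Rik, had 141 reads over the 8 libraries, and the sources used here do not say whether the counting used strand.

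Within a library, the ratio of Slc2a2 to Slc2a1, the gene of the widely expressed transporter Glut1, does not depend on the scaling between libraries. On the FPKM scale this ratio was 10.4, 4.99, 11.1 and 5.45 in Pcx L-/- replicates 1 to 4. Among control replicates 1 to 4 it was 13.2, 20.2, 17.8 and 15.2. The genotypes did not overlap, and the mean of log2 ratios was lower by 1.14 in Pcx L-/- liver (log2 difference -1.14, exact two-sided permutation test, p = 0.0286, the smallest that 4 mice against 4 allow). Adjusted over the 8 ratios computed here, p was 0.171. A single ratio at the smallest p that 4 mice against 4 allow could not pass this correction. The correction therefore could not decide on this ratio. Slc2a1 itself was not called (log2 fold change 0.06, SE 0.12, adjusted p = 0.759). Of the 10 other hexose transporter genes listed, 7 were tested, 0 were called higher and 2 lower, with a median log2 fold change of 0.06. That share of 28.6% stands beside 27.6% of all genes tested. The 2 that fell were Slc2a5, the fructose transporter Glut5 (-0.94, SE 0.27, adjusted p = 0.0231), and Slc2a8, the intracellular transporter Glut8 (-0.43, SE 0.14, adjusted p = 0.0394). For both the genotypes overlapped, and the call of Slc2a5 was lost in 6 and that of Slc2a8 in 12 of the 20 alternative settings (adjusted p up to 0.0926 and 0.371). Slc2a9, a transporter best known for urate and the most abundant of the 10 by control FPKM, had a log2 fold change of -0.56 and was not called (adjusted p = 0.0696).

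Gckr (ENSMUSG00000059434, chromosome 5 from 31297443 to 31327314, plus strand) encodes a regulatory protein of glucose phosphorylation. Normalized counts of Gckr were 2213, 1309.8, 1555 and 1750.3 in Pcx L-/- replicates 1 to 4. The 4 controls had 2787, 2089, 2865 and 1792, in the same order. Replicate 1 of the Pcx L-/- mice lay above 2 controls, so that the genotypes overlapped. The log2 fold change was -0.48 (SE 0.19, 95% interval -0.90 to -0.07) and was not called (adjusted p = 0.0807). Gckr passed the test in 3 of the 20 alternative settings, namely without Pcx L-/- replicate 1 (-0.64, adjusted p = 0.0177), without control replicate 4 (-0.60, adjusted p = 0.0342) and among the mice numbered in the 800s (-0.60, adjusted p = 0.0423).

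Pfkl (ENSMUSG00000020277, chromosome 10 from 77986947 to 78010083, minus strand) encodes the liver subunit of phosphofructokinase. Counts normalized in the same way were 508, 431, 355 and 365 in Pcx L-/- replicates 1 to 4. Controls 1 to 4 had 541, 545, 593 and 665. The genotypes did not overlap, but the highest Pcx L-/- mouse, replicate 1, came close to the lowest control. The log2 fold change was -0.50 (SE 0.13, adjusted p = 0.0183), or 70.8% of control. The FPKM level was 7.18 ± 0.772 in Pcx L-/- and 8.36 ± 0.388 in control liver (SD, n = 4 each). The call was lost without Pcx L-/- replicate 3 (-0.43, adjusted p = 0.0605) and without Pcx L-/- replicate 4 (-0.44, adjusted p = 0.0656). It was also lost with scaling by library size only (-0.22, adjusted p = 0.174) and in the 3 fits of limma to FPKM, which are likewise without TMM factors (-0.22 to -0.20, adjusted p from 0.17 to 0.182).

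The muscle subunit, Pfkm, fell further, with a log2 fold change of -1.12 (SE 0.19, adjusted p = 0.00218) and normalized counts of 131 to 270 in Pcx L-/- against 401 to 443 in control liver. Pfkp, the platelet subunit, was not called (-0.07, SE 0.18, adjusted p = 0.822). Pfkl made up 0.565, 0.673, 0.530 and 0.588 of the summed FPKM of the 3 subunits in Pcx L-/- replicates 1 to 4. Its share in control replicates 1 to 4 was 0.464, 0.492, 0.493 and 0.543. The highest control overlapped the lowest Pcx L-/- mouse, and the difference did not pass the exact permutation test (log2 difference 0.24, p = 0.0571, adjusted p = 0.171). The ratio of Pfkl to Fbp1, the phosphatase that runs the opposite reaction, was 0.0167 ± 0.00438 in Pcx L-/- and 0.0119 ± 0.00217 in control liver on the FPKM scale (SD, n = 4 each, exact permutation test, p = 0.0857, adjusted p = 0.171).

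Pfkfb1 (ENSMUSG00000025271, chromosome X from 150588229 to 150643878, plus strand) encodes the main bifunctional enzyme of liver, which sets the level of fructose 2,6-bisphosphate. Its normalized counts were 650.1, 915, 703 and 883 in Pcx L-/- replicates 1 to 4. Those of control replicates 1 to 4 were 585, 547, 779 and 729.8. Replicates 2 and 4 of the Pcx L-/- mice lay above all controls and the other 2 lay within them. The log2 fold change was 0.26 (SE 0.15, 95% interval -0.08 to 0.59, adjusted p = 0.237). Pfkfb1 was called higher only in 3 settings without TMM factors, namely scaling by library size only (0.56, adjusted p = 0.0228) and limma on log2(FPKM + 1) and log2(FPKM + 0.1) of the filtered genes (0.51 and 0.54, adjusted p = 0.0357 and 0.0355). It overlaps Apex2 on the opposite strand, which had 1483 reads over the 8 libraries.

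Pfkfb3 (ENSMUSG00000026773, chromosome 2 from 11471433 to 11554077, minus strand) encodes the inducible bifunctional enzyme, whose kinase activity far exceeds its phosphatase activity. For Pfkfb3 the normalized counts were 444, 242, 476 and 388 in Pcx L-/- replicates 1 to 4. They were 1591, 704, 514 and 463 in control replicates 1 to 4. Control replicate 1 was far above every other mouse, and control replicate 4 lay below Pcx L-/- replicate 3. The log2 fold change was -1.09 (SE 0.36, adjusted p = 0.0443), but it was -0.54 without control replicate 1 and the call was lost (adjusted p = 0.12). Among the mice numbered in the 800s it was -0.41 (adjusted p = 0.218), and with the number series as a covariate -0.75 (adjusted p = 0.0932). The call was also lost without Pcx L-/- replicates 2, 3 or 4 or without control replicate 2 (adjusted p = 0.117, 0.0647, 0.102 and 0.0596) and with upper quartile factors, scaling by library size only and the 3 limma fits (adjusted p from 0.0532 to 0.33). The FPKM level was 4.94 ± 1.28 in Pcx L-/- and 8.72 ± 5.82 in control liver (SD, n = 4 each).

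The ratio of Pfkfb1 to Pfkfb3 on the FPKM scale was 2.77, 7.16, 2.79 and 4.31 in Pcx L-/- replicates 1 to 4. The 4 controls had ratios of 0.696, 1.47, 2.87 and 2.98. The 2 genotypes overlapped, and the difference did not pass the test (log2 difference 1.19, exact permutation test, p = 0.171, adjusted p = 0.274). The other 2 members of the enzyme family, Pfkfb2 and Pfkfb4, had log2 fold changes of -0.09 and 0.28 and were not called (adjusted p = 0.618 and 0.642).

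Khk (ENSMUSG00000029162, chromosome 5 from 30921431 to 30931248, plus strand) encodes ketohexokinase, which starts fructose breakdown. Khk had normalized counts of 3688, 2430.3, 2704 and 3045 in Pcx L-/- replicates 1 to 4. Its counts in control replicates 1 to 4 were 3759.8, 4239, 3595 and 2821. Replicate 4 was the lowest control and replicate 1 the highest Pcx L-/- mouse, so that the genotypes overlapped. The log2 fold change was -0.28 (SE 0.16, 95% interval -0.64 to 0.07, adjusted p = 0.224), and Khk was called in 0 of the 20 alternative settings. On the FPKM scale, where it was the most abundant of the 7 genes, the level was 131 ± 13.7 in Pcx L-/- and 133 ± 27.9 in control liver (SD, n = 4 each).

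Further along the route of fructose, Tkfc, triokinase, which phosphorylates the glyceraldehyde made from fructose, fell. Its normalized counts were 3272, 2207, 2383 and 2468 in Pcx L-/- and 4630.1, 3517, 5019.6 and 5699 in control replicates 1 to 4. No Pcx L-/- mouse reached the lowest control, and the log2 fold change was -0.87 (SE 0.17, adjusted p = 0.00483). Sord, sorbitol dehydrogenase, which makes fructose from sorbitol, fell too (-0.87, SE 0.22, adjusted p = 0.0137), as did Glyctk, glycerate kinase (-0.59, adjusted p = 0.0158), and Galk1, galactokinase (-0.68, adjusted p = 0.0188). In the same list Adpgk, an ADP-dependent kinase of glucose, rose (0.65, SE 0.13, adjusted p = 0.00435). In all, 2 of the 13 tested genes of hexose phosphorylation and fructose metabolism were higher and 4 lower, a share of 46.2% beside 27.6% of all genes, with a median log2 fold change of -0.18. Tkfc and Adpgk were called in all 20 alternative settings, whereas the calls of Sord, Glyctk and Galk1 were lost in 2, 7 and 8 of them (adjusted p up to 0.0533, 0.0974 and 0.119). The hexokinases Hk1 and Hk2 were not called (-0.06 and 0.11, adjusted p = 0.822 and 0.8).

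Pklr (ENSMUSG00000041237, chromosome 3 from 89136142 to 89146784, plus strand) encodes the pyruvate kinase of liver and red blood cells, and is the gene whose window above holds the paired E-box element. Pklr had normalized counts of 896, 2481, 1722 and 1986 in Pcx L-/- replicates 1 to 4. In control replicates 1 to 4 they were 895, 1006, 880.3 and 1193. Replicates 2, 3 and 4 of the Pcx L-/- mice lay above every control, whereas replicate 1 was within the control range. The level rose to 178% of control, a log2 fold change of 0.84 (SE 0.25, adjusted p = 0.0285). Its FPKM level was 40.6 ± 17.1 in Pcx L-/- and 18.2 ± 1.79 in control liver (SD, n = 4 each). Without Pcx L-/- replicate 1 the log2 fold change was 1.06 (adjusted p = 0.00032), and among the mice numbered in the 800s it was 0.997 (adjusted p = 0.00331). The call was lost in 8 of 20 alternative settings, with adjusted p from 0.0568 to 0.0891. These were the omission of any 1 of Pcx L-/- replicates 2, 3 and 4 or of control replicates 1, 2 and 3, the number series as a covariate (0.63, adjusted p = 0.0585) and limma on all genes with a read. Pklr is also the pyruvate kinase of red blood cells, and the counts per gene do not separate its 2 forms. Of the 8 red blood cell markers 6 were tested and 0 were called by edgeR, with a median log2 fold change of 1.14. That median rests on Pcx L-/- replicate 1, without which it was -0.17, with 0 markers called higher and 1, Alas2, lower, beside 34.5% of all genes called. The part of red blood cells in the Pklr level was not tested. Pklr overlaps Hcn3 on the opposite strand, which had 609 reads over the 8 libraries.

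The other pyruvate kinase gene, Pkm, was not called (log2 fold change 0.03, 95% interval -0.32 to 0.38, adjusted p = 0.914). On the FPKM scale the ratio of Pklr to Pkm was 2.58, 4.77, 3.35 and 4.08 in Pcx L-/- replicates 1 to 4. In control replicates 1 to 4 it was 1.64, 2.23, 1.85 and 3.37. Control replicate 4 lay among the Pcx L-/- mice, and the difference did not pass the exact permutation test (log2 difference 0.72, p = 0.0857, adjusted p = 0.171). Of the other genes whose windows held the paired element, 4 were tested. Irak1bp1 was higher (1.23, adjusted p = 0.0267), and A430005L14Rik, Fam124a and Crybg3 were not called (-0.04, -0.09 and -0.28).

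**Figure D2:**
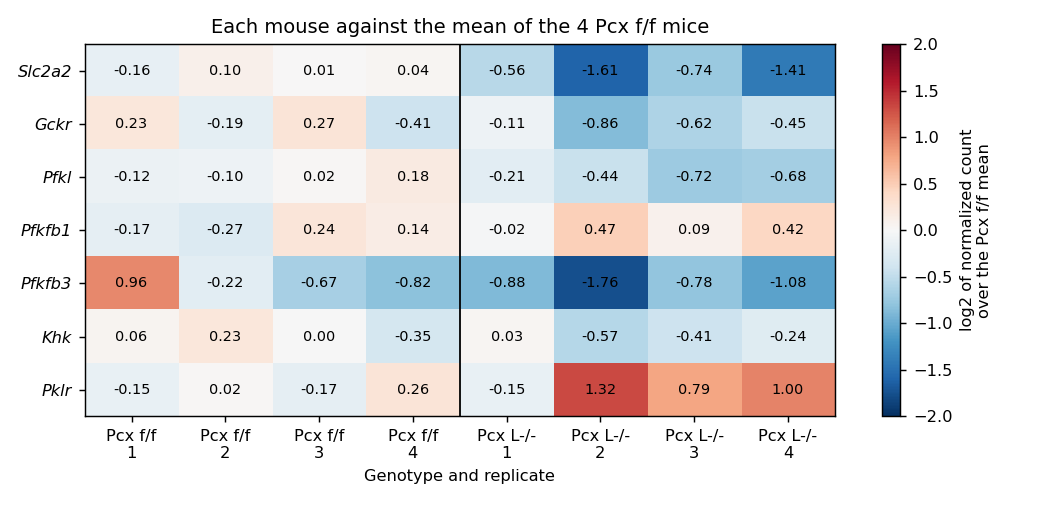
Log2 of each mouse's normalized count over the mean of the 4 Pcx f/f mice (color and printed value), with the 7 genes as rows and the 8 mice as columns. Pcx L-/- replicate 2 has the lowest Slc2a2 (-1.61), Gckr (-0.86), Khk (-0.57) and Pfkfb3 (-1.76) and the highest Pklr (1.32) and Pfkfb1 (0.47) of its genotype, and Pcx L-/- replicate 1 lies nearest to the control mean for every gene but Pfkfb3.

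The Pcx L-/- mice differed among themselves in the same way over most of these genes. Replicate 1 was the Pcx L-/- mouse closest to the control mean for 6 of the 7 genes, Pfkfb3 being the exception, where replicate 3 was closest. Replicate 2 lay farthest for Slc2a2, Gckr, Pfkfb1, Pfkfb3, Khk and Pklr, as the plot of each mouse against the control mean shows. For Pfkl replicate 3 was the lowest. How often replicate 1 was the closest over all genes was not counted. Without replicate 1 the test called 4 genes lower and 1 higher, Gckr being the gene added. In that setting 34.5% of all genes tested were called, against 27.6% with all 8 mice. The part of the red blood cell markers, the TMM factor and the mouse number series in the position of replicate 1 was not tested.

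**Figure D3:**
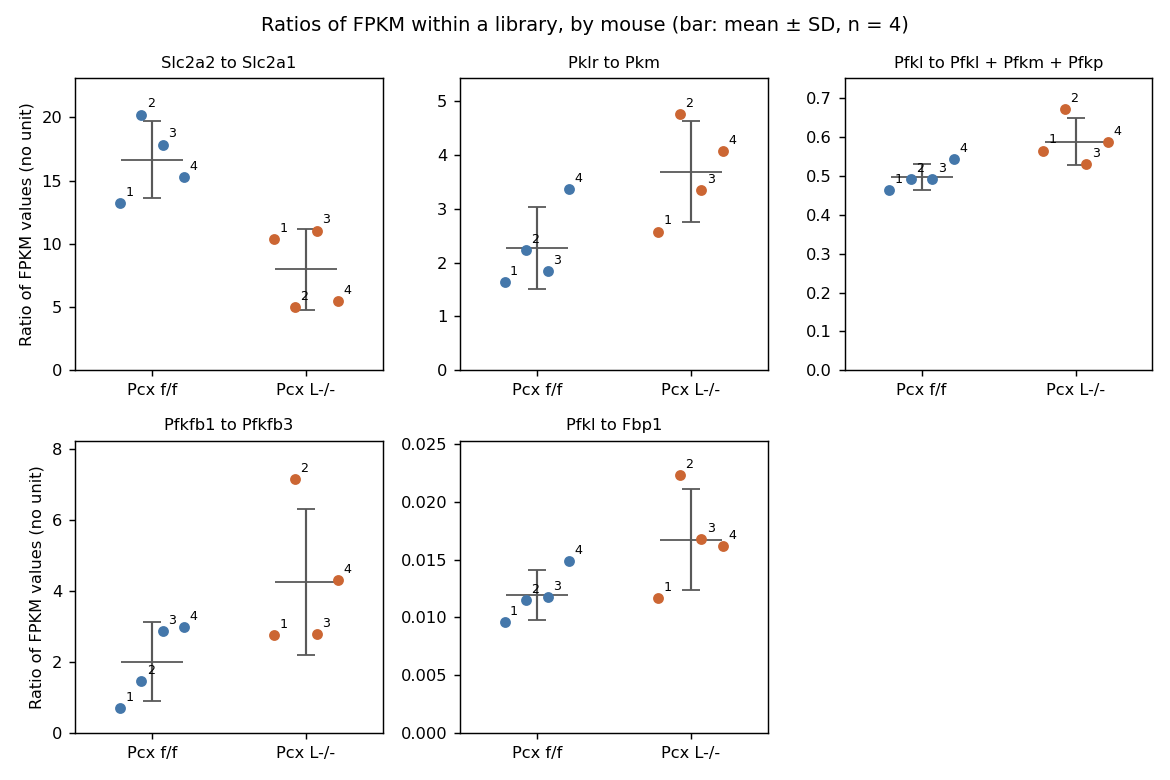
Ratios of FPKM values within a library (y axis, no unit, from 0) for 5 pairs of genes, 1 point per mouse with its replicate number, with the mean and SD (n = 4). The genotypes are separate only for Slc2a2 to Slc2a1, with 4.99 to 11.1 in Pcx L-/- and 13.2 to 20.2 in Pcx f/f mice.

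The plot of ratios within a library sets 5 pairs side by side. Of these a single pair, Slc2a2 to Slc2a1, was apart in the 2 genotypes, and after adjustment over the 8 ratios none passed 0.05, the lowest adjusted p being 0.171 (exact permutation tests, with 1 of 8 at an unadjusted p under 0.05). A single ratio at the smallest p that 4 mice against 4 allow could not pass this adjustment, so it could not decide on that pair.

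Between the entry of hexoses and pyruvate kinase, 3 of the 17 tested genes of lower glycolysis rose and 2 fell, a share of 29.4% beside 27.6% of all genes, with a median log2 fold change of -0.07. Without Pcx L-/- replicate 1, 3 were called higher and 6 lower, beside 34.5% of all genes called in that setting. Those that rose were Aldoa, an aldolase most abundant in muscle (0.81, SE 0.15, adjusted p = 0.00318), Eno3, the muscle enolase (0.86, SE 0.21, adjusted p = 0.0129), and Tigar, a phosphatase of fructose 2,6-bisphosphate (0.55, SE 0.13, adjusted p = 0.00974). Beside the muscle forms, the 2 of 8 skeletal muscle markers that could be tested were not called, with a median of 0.44, the summed FPKM of the list was at most 2.29 in Pcx L-/- and 1.30 in control liver, lower in each control than in each Pcx L-/- mouse, and Acta1 and Myh1 had 0 reads. Those that fell were Pfkm, given above, and Aldoc, the aldolase best known from brain (-1.81, SE 0.29, adjusted p = 0.00177). Gapdh and Tpi1, the most abundant genes of the list by control FPKM, were not called (-0.28 and -0.48, adjusted p = 0.199 and 0.0552). Over the 7 genes and the lists of transporters, hexose phosphorylation and lower glycolysis, 44 genes were tested, of which 6 were higher and 11 lower. That share of 38.6% stands beside the 27.6% of all genes tested.

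Enzymes that run against glycolysis were called in 6 of 7 cases, 4 lower and 2 higher, with a median log2 fold change of -0.72, against 27.6% of all genes called, 13.5% lower and 14.1% higher. Pck1, the cytosolic enzyme that makes phosphoenolpyruvate, fell (-0.72, SE 0.20, adjusted p = 0.0195), as did Fbp1 (-0.90, SE 0.24, adjusted p = 0.019), the glucose 6-phosphate transporter Slc37a4 (-0.93, SE 0.20, adjusted p = 0.00674) and the glucose 6-phosphatase G6pc (-0.90, SE 0.30, adjusted p = 0.0477). For G6pc the genotypes overlapped, with normalized counts of 3030 to 5053 in Pcx L-/- and 3388 to 11580 in control liver, and the call was lost in 13 of the 20 alternative settings (adjusted p up to 0.379). The calls of Pck1 and Fbp1 were lost in 7 and 5 settings (adjusted p up to 0.126 and 0.0677). Over all settings 3 to 6 of the 7 enzymes were called, while the share of all genes called ran from 15.7% to 36.3%. The ubiquitous phosphatase G6pc3 (1.08, SE 0.18, adjusted p = 0.00197) and the mitochondrial Pck2 (0.96, SE 0.22, adjusted p = 0.00881) rose, and these 2 and Slc37a4 were called in every setting. Beside these lower genes and Slc2a2, of the 9 hepatocyte markers tested Apoa1 and Fgb fell (-1.04 and -0.61). Of the 9, 0 were called higher, and the median log2 fold change was -0.50. Neither the call of Apoa1 nor that of Fgb was kept in all 20 alternative settings. Ahsg lay the other way, with normalized counts of 159523 to 191984 in Pcx L-/- and 119077 to 162927 in control liver. Without Pcx L-/- replicate 1, 6 of the 9 were called lower, with a median of -0.71, beside 34.5% of all genes called in that setting. Among the mice numbered in the 800s, 6 were lower too, with a median of -0.78, beside 29.8% of all genes. Other settings called fewer. With the replicate number as a block 1 was lower, beside 22.6% of all genes. In limma on all genes with a read 0 were called, beside 17.6%. With scaling by library size only 3 were lower and 1 higher, beside 36.3% of all genes. Alb was not called by edgeR (-0.63, SE 0.22, adjusted p = 0.0533), although its values did not overlap between genotypes. The part of these markers in the lower values of Slc2a2, Gckr and Khk was not tested.

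Genes of the response to carbohydrate, many of them targets of ChREBP or SREBP-1c, were called higher in 2 and lower in 3 of 14 cases, a share of 35.7% beside 27.6% of all genes, with a median log2 fold change of -0.11. Mlxipl, the gene of ChREBP and the most abundant of the list by control FPKM, was not called (0.29, SE 0.16, adjusted p = 0.21). Me1, malic enzyme (0.73, SE 0.17, adjusted p = 0.0113), and the fatty acid elongase Elovl6 (0.59, SE 0.15, adjusted p = 0.0144) rose, as Pklr did. Srebf1, the gene of SREBP-1 (-1.38, SE 0.27, adjusted p = 0.00451), fatty acid synthase Fasn (-0.95, SE 0.20, adjusted p = 0.00669) and the arrestin-like Arrdc4 (-0.69, SE 0.15, adjusted p = 0.00738) fell. Me1 and Srebf1 were called in all 20 alternative settings, and the calls of Elovl6, Fasn and Arrdc4 were lost in 1, 1 and 3 of them (adjusted p up to 0.0594, 0.0637 and 0.0873).

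**Figure D4:**
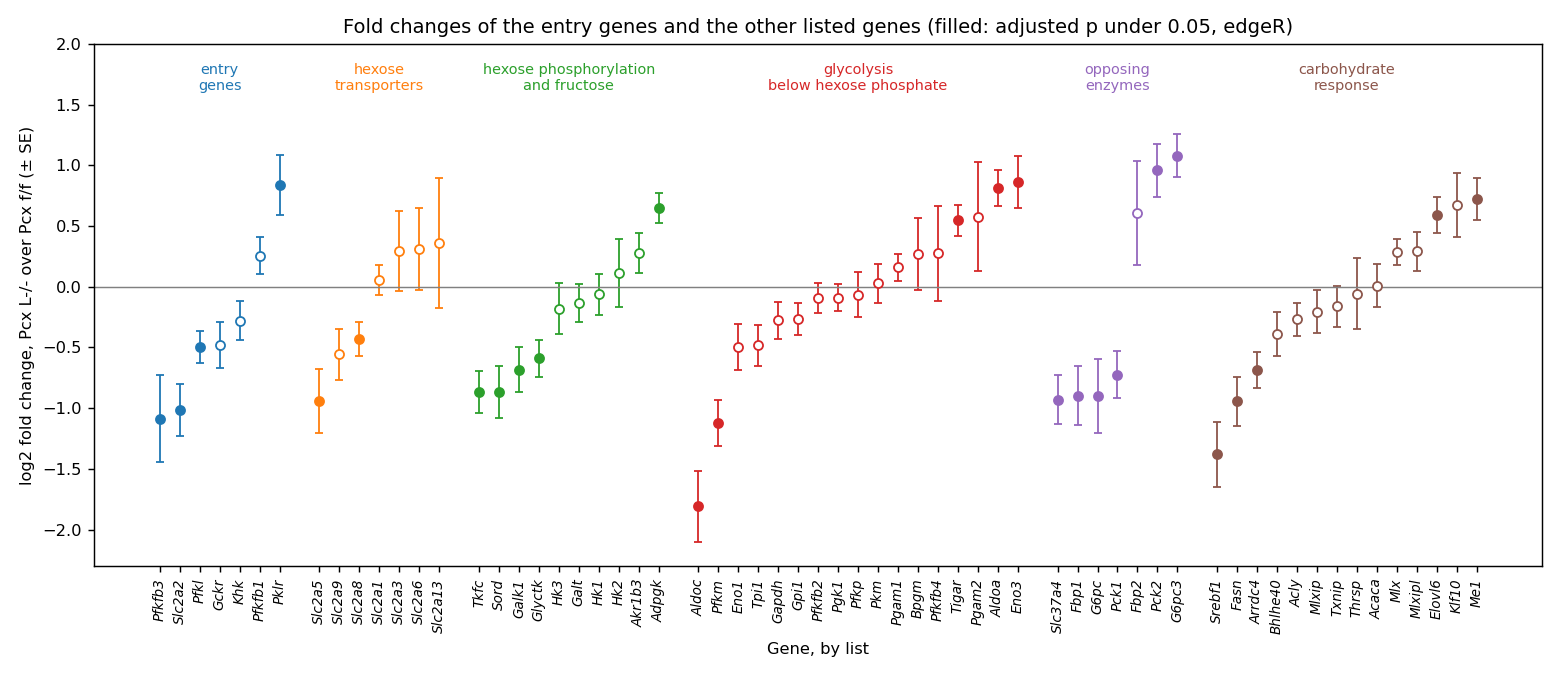
Log2 fold change with its SE (y axis, Pcx L-/- over Pcx f/f, edgeR) for the 7 entry genes and tested genes of 5 other lists, ordered by size within each list, with filled points for an adjusted p under 0.05. Aldoc (-1.81) is lowest and G6pc3 (1.08) highest of the genes shown, and of the entry genes Pklr alone is filled above 0.

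The plot of fold changes by list shows called genes on both sides of 0 in every list but that of the transporters. Among other liver cells, of the 10 Kupffer cell markers 1 was higher (Cd68, 0.86, lost in 8 of 20 settings) and 0 lower, with a median of 0.11. Endothelial and stellate markers were called in 0 of 8 cases each by edgeR, with medians of -0.08 and -0.06. Of the 5 cholangiocyte markers tested 1, Sox9, was lower (-0.79, lost in 7 of 20 settings), with a median of -0.47. Among the mice numbered in the 800s, 6 Kupffer markers were higher (median 0.50), as were 2 stellate (0.38) and 1 endothelial (0.01). In that setting 29.8% of all genes were called. With the number series as a covariate, 0 Kupffer markers were called, and 1 endothelial and 1 stellate marker were lower, beside 26.8% of all genes called.

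By profile over the 8 libraries, the genes most like each entry gene were found among 10698 genes with a mean FPKM of at least 1, using the root mean square difference of log2 normalized counts after centering each gene on its mean. For Slc2a2 they were Gm5834, Slco1b2, a hepatic uptake transporter, and Tmem219, with differences of 0.115, 0.139 and 0.142. Gckr was followed most closely by Hdc (0.0816), Gcgr, the glucagon receptor (0.12), and Umad1 (0.12). Map4k4, Clpx and Dtx4 came closest to Pklr (0.099, 0.102 and 0.118). For Khk the 3 nearest were Ube2e2, Rnaset2b and Ndufb9 (0.0609 to 0.0646), for Pfkl Zbtb43, Adam9 and Uvrag (0.0759 to 0.0795), and for Pfkfb1 Sgsm3, Ptbp1 and Klhl18 (0.0672 to 0.0761). Pfkfb3 had no gene as close, the nearest being Col27a1, Adam11 and Apol7a (0.368 to 0.394). After the mean of each genotype was subtracted, Hdc remained the nearest to Gckr and Map4k4 was second for Pklr, and Rnaset2b was second for Khk, while the other nearest genes changed.

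**Figure D5:**
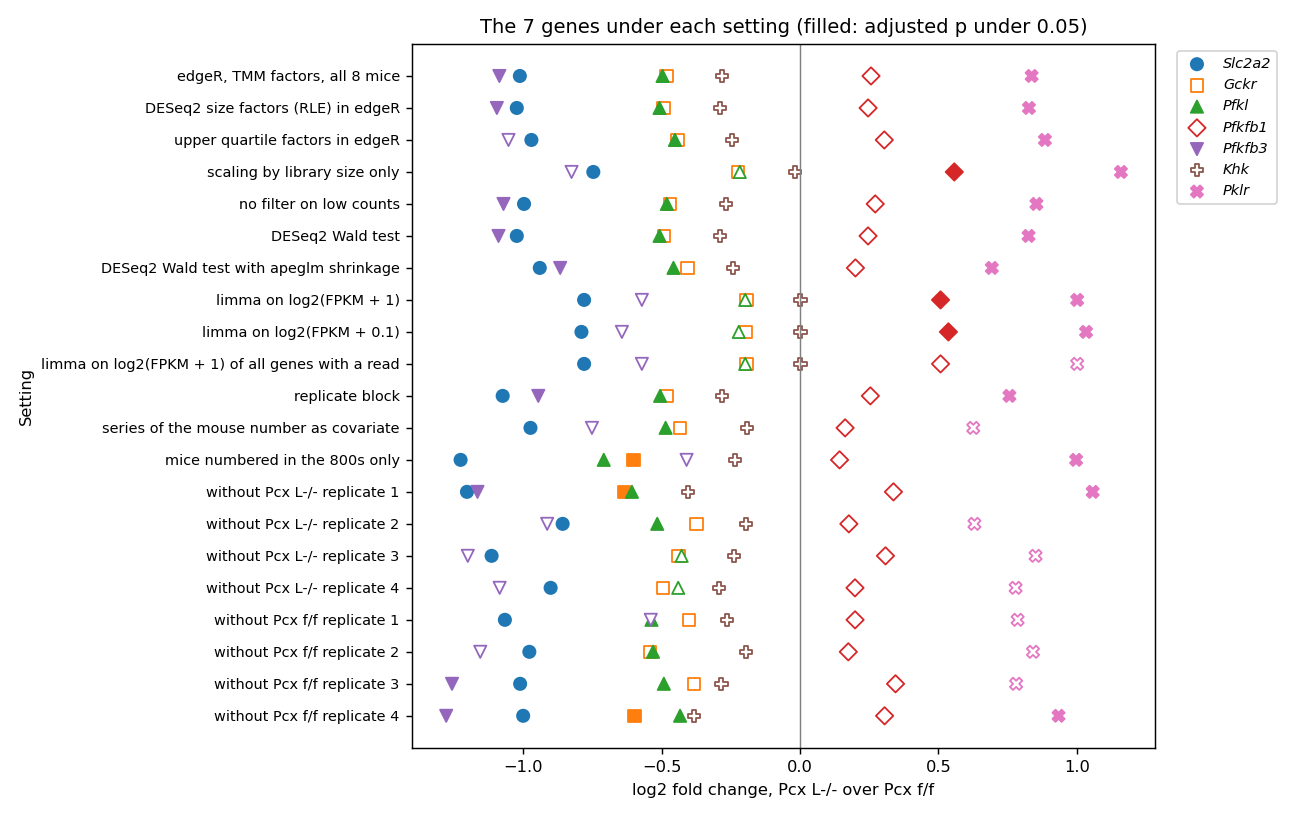
Log2 fold change (x axis, Pcx L-/- over Pcx f/f) of the 7 genes under the main setting and 20 alternatives (y axis), with filled symbols for an adjusted p under 0.05. Slc2a2 is filled in every setting, between -1.23 and -0.75, Khk in none, and scaling by library size only lies to the right of the main setting for all 7 genes.

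The plot of settings shows which of these calls rest on the scaling or on a mouse. Pklr stayed above 0 and Slc2a2, Gckr, Pfkl and Pfkfb3 below 0 in every setting tried, and Pfkfb1 stayed above 0. Khk lay between -0.41 and 0.00, just above 0 in the 3 limma fits. With scaling by library size only, 81.8% of the genes called over the whole table were higher, against 51.1% with TMM factors, and the median log2 difference of all genes was 0.26. The medians of the lists of hexose phosphorylation, lower glycolysis and the carbohydrate response were then above 0 as well, at 0.115, 0.22 and 0.16. Khk at -0.02, Gckr at -0.22 and Pfkl at -0.22 lay below the median gene in that setting too.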

How the data were processed

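Reads were counted per gene in liver RNA of 8 mice, 4 per genotype, from libraries made and sequenced by a company. The authors deposited raw read counts per Ensembl gene of mouse genome mm10, and the submitters' processing notes name STAR 2.5, HTSeq 0.6.1 and DESeq2 without a role. The authors also deposited FPKM values, and all 142384 of them above 0 equal the count divided by 1 length per gene and by the library total, within a relative tolerance of 1e-06. Annotation release and strand setting were not stated in the sources used here. Symbols matched 97.8% of identifiers. Of 128 listed symbols 1, Tf, matched no row.

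Genotypes were compared with edgeR 4.0.16 (R 4.3.3) by the quasi-likelihood test on counts with TMM factors and a term for genotype alone, and p was adjusted by the Benjamini-Hochberg method across the 13168 genes kept by filterByExpr (minimum count 10, minimum total 15). SE is the log2 fold change over the square root of F and is approximate, and intervals are 95% from the fit. Normalized counts are scaled to the geometric mean of effective library sizes. Each library is 1 mouse, so the edgeR p-values set the genotype difference against the spread between mice, estimated with information shared across genes. The totals limit the precision for genes with few reads. Ratios were compared by exact two-sided permutation tests. On simulated data with these libraries (13013 genes tested), edgeR recovered 34.3% of 67 genes changed 1.5-fold, 86.4% of 66 changed 2-fold and 100% of 66 changed 4-fold, with 11 false calls. Far fewer genes were changed in the simulation than were called in the data, which makes the adjusted p stricter there. Each simulated gene had the typical spread of genes at its abundance, and no simulated mouse was set apart. Recovery of genes with a larger spread, such as Pfkfb3, was therefore not measured. Alternatives were other scalings, no filter, DESeq2 1.42.0 without and with apeglm 1.24.0 shrinkage, limma 3.58.1 on log2(FPKM + 1) and log2(FPKM + 0.1), the replicate number as a block, the series of the mouse number (500s or 800s), and each mouse left out.

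The members and lists were chosen with earlier results of these data known. Named are Pcx, the 7 genes, the genes of each list past the threshold and the 2 most abundant of each pathway list, a set of related enzymes whatever their values, the 3 genes nearest in profile, and the tested genes whose windows hold the paired element. Promoter windows came from RefSeq for GRCm38.p6. Only the deposited counts and FPKM were used. The other measurements of the study are not analysed here. Some genes of the lists, with the 3 ratios that use them, are not reported here, but they are included in the counts of each list and in the adjustment over ratios.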

Additional observations from a re-analysis of the deposited data

How the results depend on the processing

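Over 20 alternatives, 105 of the 140 values of the 7 genes kept their direction and their side of the threshold, 26 lost a call, 6 gained one and 3 reversed, all 3 of Khk, which was never called (0.001305, 0.001471 and 0.001305 in limma on log2(FPKM + 1), on log2(FPKM + 0.1) and on all genes with a read). The values of the 8 ratios kept their side where they could be tested, and no test was made with a mouse left out or within the 800s. Scaling by library size only called 2 of the 7 genes higher and 1 lower, as did limma on log2(FPKM + 1) and on log2(FPKM + 0.1), whereas limma on all genes with a read called 0 higher and 1 lower. Over all genes tested, library size only gave 3915 higher and 870 lower genes, limma on log2(FPKM + 1) 3822 and 823, limma on log2(FPKM + 0.1) 3779 and 822, and limma on all genes with a read 3189 and 637, against 1855 and 1777. DESeq2's size factors in edgeR gave 1787 and 1821, and the DESeq2 Wald test 1949 and 2075. With the series of the mouse number as a covariate 0 of the 7 genes were called higher and 2 lower, beside 26.8% of all genes called, the cause being not tested. With each mouse left out in turn, between 2109 and 4602 genes were altered in all (1156 to 2232 higher and 953 to 2370 lower), lowest without Pcx L-/- replicate 4 and highest without Pcx L-/- replicate 1, with 2295 without Pcx L-/- replicate 2, and of the 7 genes 0 to 1 were called higher and 1 to 4 lower.

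With the replicate number as a block 2975 genes were altered (1481 higher and 1494 lower), and the same count of the 7 genes, 1 higher and 3 lower, was called. The numbers did not pair the mice, since the correlations of same-numbered mice were 0.0958, -0.127, -0.0938 and -0.0677, and of the controls replicate 1 alone correlated best with its own number. On simulated data 34.3% of 1.5-fold changes were recovered. Far fewer genes were changed there than were called in the data, and no gene had more than the typical spread at its abundance, so recovery in these data was not measured. A missing call does not exclude changes of that size, and Hk2, Pfkp, Pfkfb4, Fbp2, Slc2a3, Slc2a6 and Slc2a13 had mean FPKM under 1 in both genotypes. The median of the red blood cell markers reversed without Pcx L-/- replicate 1 (-0.1732), and the settings of the lists of other genes were chosen after seeing the data.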
